A study of Arabidopsis thaliana with 8 samples.

Results

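JAZ1 to JAZ10 are the 10 JASMONATE-ZIM-DOMAIN genes whose identifiers were listed for this account, and all 10 were found in the expression table of 33977 Arabidopsis thaliana genes. The libraries came from pooled floral buds of stages 8 to 10, with 4 biological replicates of pSTK::amiRNACWIN24 line 4-3, called amiRNACWIN24 here, and 4 of wild type (WT). In line 4-3 the promoter of STK, a MADS box gene of ovule identity, drives an artificial microRNA whose name refers to 2 cell wall invertase genes, CWINV2 and CWINV4, while the RNA came from whole buds. It is a single transgenic line, chosen by the submitters as representative, and nothing in the labels says whether its replicates shared plants or a collection time with those of WT. In whole buds, fewer cells of a type and less RNA per cell cannot be told apart.

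JAZ proteins are the repressors of jasmonate signalling. In the absence of the hormone they sit on MYC2 and related bHLH factors and recruit the corepressor TOPLESS, mostly through the adaptor NINJA. Jasmonoyl-isoleucine joins a JAZ protein to the F-box receptor COI1, the JAZ protein is degraded, and MYC factors then switch on their targets, among them most JAZ genes themselves, so JAZ transcripts serve as a readout of recent jasmonate signalling as well as its brake. In flowers jasmonate drives the late steps of stamen development, from filament growth to pollen release.

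Expression was measured as RPKM, the reads of a gene per kilobase of its exons, scaled to the mapped reads of the library. Levels can be compared between genes only roughly, since fold changes in these libraries still ran with exon length. The reads assigned to genes were 22.5 to 26.2 M in amiRNACWIN24 and 25.5 to 26.7 M in WT. The totals to which RPKM was scaled, recovered from the values, were 25.6 to 26.8 M in amiRNACWIN24 and 26.6 to 29.1 M in WT. Genes held the smallest part of that total in amiRNACWIN24 replicate 2 (22.5 of 25.6 M) and WT replicate 1 (25.5 of 29.1 M). RPKM values of these libraries are therefore somewhat low beside those of the others. CWINV4 lay at 11.2 to 14.97 RPKM in amiRNACWIN24, below the 24.3 to 29.8 RPKM of WT, while CWINV2 was under 0.11 RPKM in all libraries but WT replicate 1 (2.75 RPKM). STK lay at 0.410 to 0.767 RPKM in amiRNACWIN24 and at 8.41 to 11.2 RPKM in WT. The floral organ genes AG, AP3, PI, SEP3 and AP1 summed to 674 to 739 RPKM in amiRNACWIN24 and 742 to 912 RPKM in WT, so the defining genes of the labelled tissue were present in all 8 libraries. A log2 fold change is the difference of the group means of log2(RPKM + 0.5), amiRNACWIN24 minus WT, and for scarce genes it is smaller than the true ratio. Genes averaging 1 RPKM or more over the 8 libraries, 19082 in all, were tested with limma, and a gene is said to rise or fall where its adjusted p was under 0.05. JAZ4 was under that level, so 9 of the 10 were tested.

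The upstream sequences of 4 members are shown because they hold, or lack, the G-box CACGTG, the element MYC2 binds, and its relative AACGTG. Within 1000 bases upstream of the annotated gene start, 8 of the 10 members had a CACGTG, against 14.1% of 32532 genes with matching coordinates, and 8 of 10 had AACGTG on either strand, against 23.5%. Within 300 bases the counts were 4 of 10 for CACGTG, against 6.48% of genes, and 3 of 10 for AACGTG, against 8.41%. The genes JAZ5, JAZ6 and JAZ10 are shown since their levels differed most clearly between the genotypes, and JAZ3 since it has a pair of G-boxes close to its start and its level as deposited hardly differed. Each sequence is the 300 bases before the gene start, 5′ to 3′ on the gene's strand, with CACGTG and AACGTG (or CACGTT, its reverse complement) in capitals.
JAZ5: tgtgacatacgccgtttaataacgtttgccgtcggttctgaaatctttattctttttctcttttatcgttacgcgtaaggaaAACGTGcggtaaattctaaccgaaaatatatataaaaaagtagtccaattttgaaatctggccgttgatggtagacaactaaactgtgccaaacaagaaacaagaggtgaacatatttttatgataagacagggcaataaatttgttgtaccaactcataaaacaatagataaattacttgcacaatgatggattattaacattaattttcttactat
JAZ6: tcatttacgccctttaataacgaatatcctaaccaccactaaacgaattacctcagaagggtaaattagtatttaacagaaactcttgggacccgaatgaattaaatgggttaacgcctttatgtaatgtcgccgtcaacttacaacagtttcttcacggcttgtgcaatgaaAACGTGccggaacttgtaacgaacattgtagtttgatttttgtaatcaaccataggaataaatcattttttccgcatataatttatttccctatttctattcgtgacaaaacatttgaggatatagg
JAZ10: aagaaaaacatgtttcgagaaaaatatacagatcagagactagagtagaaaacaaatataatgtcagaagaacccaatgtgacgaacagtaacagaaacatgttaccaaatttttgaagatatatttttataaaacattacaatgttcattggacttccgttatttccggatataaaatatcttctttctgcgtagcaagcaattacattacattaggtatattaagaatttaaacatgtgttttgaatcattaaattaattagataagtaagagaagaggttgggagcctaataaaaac
JAZ3: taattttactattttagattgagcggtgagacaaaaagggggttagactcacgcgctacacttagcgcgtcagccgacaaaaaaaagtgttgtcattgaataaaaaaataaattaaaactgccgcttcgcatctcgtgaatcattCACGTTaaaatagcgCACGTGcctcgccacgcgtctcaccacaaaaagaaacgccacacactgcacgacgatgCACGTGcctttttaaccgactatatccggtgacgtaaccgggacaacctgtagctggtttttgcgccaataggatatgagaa
They were read from the RefSeq TAIR10.1 genome at chr1:5957512-5957811 (minus strand), chr1:27276563-27276862 (minus), chr5:4218486-4218785 (plus) and chr3:6119407-6119706 (plus), in that order. Other annotated genes, AT1G09307 and AT5G02045, reach into the windows of JAZ6 and JAZ10. The AACGTG of JAZ5 began 218 bases before the gene start and that of JAZ6 127 bases before it. In JAZ3 the G-boxes began 140 and 82 bases before the start and the CACGTT 155 bases before it. The window of JAZ10 held neither, and over 1000 bases JAZ10 had a single AACGTG, 923 bases upstream. Beyond the 300 bases shown, JAZ5 had a CACGTG at 589 bases and JAZ6 had CACGTG at 514 and 478 bases. The G-boxes nearest to a gene start were those of JAZ8, JAZ7 and JAZ2, at 10, 34 and 66 bases. Matches are letters only, and binding was not measured.

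Of the 9 members tested, 5 rose in amiRNACWIN24 buds (JAZ1, JAZ5, JAZ6, JAZ9 and JAZ10), 0 fell and 4 did not pass. Over all genes tested 29.4% rose and 21% fell, 50.4% in either direction, so a call by itself was common in these libraries. The amiRNACWIN24 libraries all lay above the WT libraries in JAZ5, JAZ6, JAZ9 and JAZ10, as they did in 27.4% of all genes tested, and JAZ4, not tested, lay below in every library, as did 18.4% of the genes tested. The median log2 fold change was 0.20 for the 9 members and 0.066 for all genes tested. Fold changes in these libraries ran with exon length, and the 500 tested genes nearest in exon length to each member had medians from -0.45 for JAZ8 (806 nt of exon) to 0.36 for JAZ3 (2749 nt). With that trend removed within each library, 14% of all genes rose and 10.3% fell, and of the 9 members JAZ2, JAZ5, JAZ6, JAZ7 and JAZ10 rose and JAZ3 fell. JAZ5, JAZ6 and JAZ10 were called up in both. The share of all genes tested with a p as small or smaller was 3.08% for JAZ6, 11.2% for JAZ5, 13.0% for JAZ10, 49.3% for JAZ9 and 50.2% for JAZ1.

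**Figure D1:**
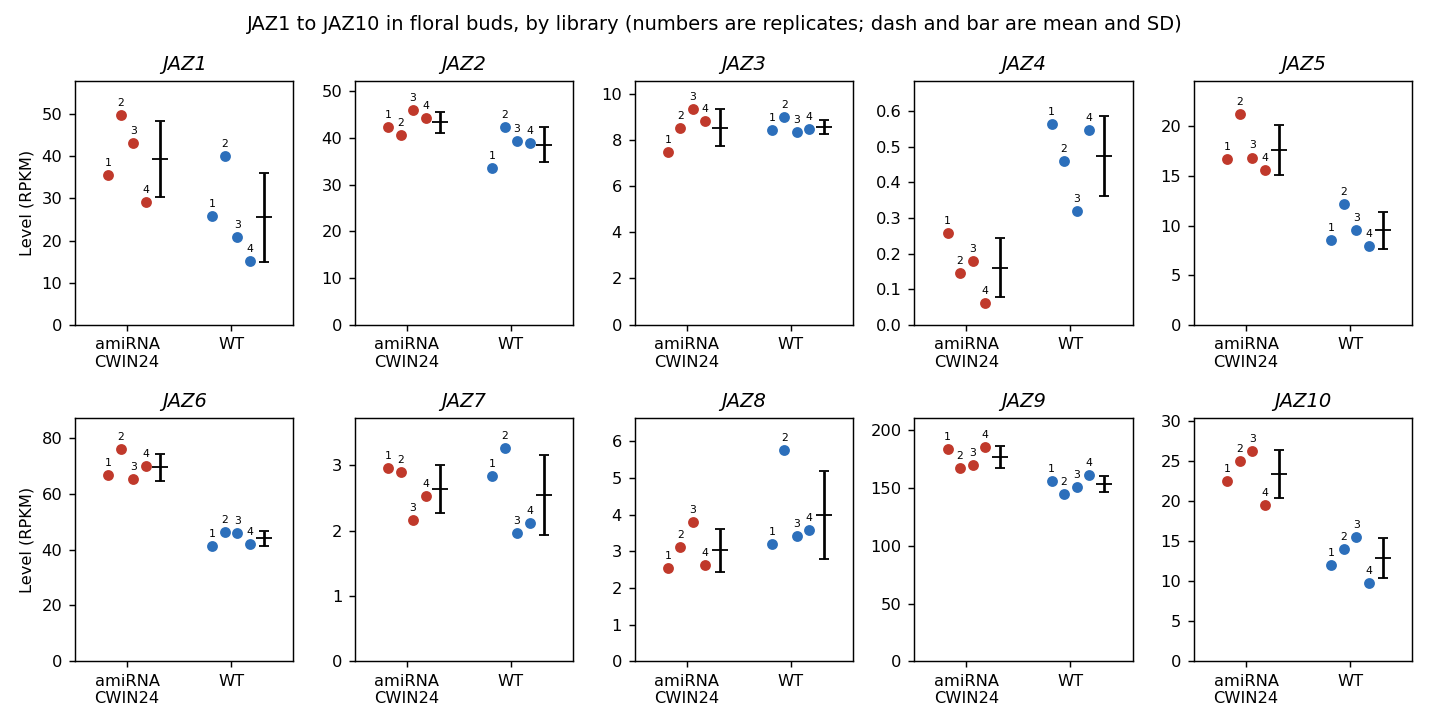
Level of each JAZ gene in RPKM in the 4 amiRNACWIN24 libraries (red, left) and the 4 WT libraries (blue, right), with the replicate number beside each point and the mean and SD in black; each panel has its own axis starting at 0. The groups stand clear of each other in JAZ5, JAZ6, JAZ9 and JAZ10, higher in amiRNACWIN24, and in JAZ4, lower in amiRNACWIN24; the other members overlap.

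JAZ9 was the dominant transcript of the family, and the order of the members by mean level was the same in both genotypes: JAZ9, JAZ6, JAZ2, JAZ1, JAZ10, JAZ5, JAZ3, JAZ8, JAZ7 and JAZ4. JAZ9 gave 46.0% ± 3.22 of the summed RPKM of the 10 in amiRNACWIN24 and 51.3% ± 4.35 in WT (SD, n = 4 each). The next 3, JAZ6, JAZ2 and JAZ1, gave 18.1%, 11.3% and 10.2% in amiRNACWIN24 and 14.7%, 12.9% and 8.43% in WT. The ranges of neighbouring members in the order overlapped for 3 pairs in amiRNACWIN24 (JAZ2 with JAZ1, JAZ10 with JAZ5, and JAZ8 with JAZ7) and for 6 in WT, where only JAZ9, the step from JAZ3 to JAZ8 and the step from JAZ7 to JAZ4 stood clear. The sum of the 10 was 381, 394, 383 and 377 RPKM in amiRNACWIN24 replicates 1 to 4 and 292, 318, 296 and 290 RPKM in WT replicates 1 to 4. Each amiRNACWIN24 sum was above each WT sum, and the means were 384 ± 7.29 RPKM in amiRNACWIN24 and 299 ± 13.1 RPKM in WT.

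**Figure D2:**
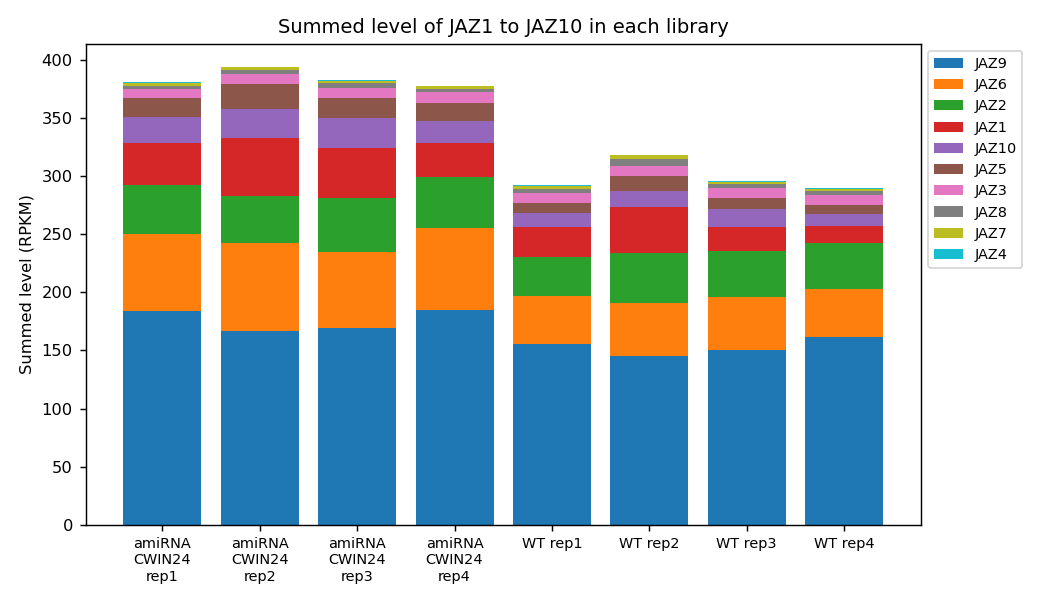
Stacked RPKM of the 10 JAZ genes in each amiRNACWIN24 library (left) and WT library (right), from JAZ9 at the base upward in the order of WT means. The amiRNACWIN24 columns reach 377 to 394 RPKM and the WT columns 290 to 318 RPKM, with JAZ9 the tallest block of each.

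JAZ5 and JAZ6 are close paralogs whose products bind MYC factors and are degraded through COI1. JAZ5 (AT1G17380, named TIFY11A in the files; chromosome 1, 5955155 to 5957511 in TAIR10) held 16.7, 21.3, 16.9 and 15.6 RPKM in amiRNACWIN24 replicates 1 to 4 and 8.54, 12.2, 9.51 and 7.94 RPKM in WT replicates 1 to 4. The lowest amiRNACWIN24 library was above the highest WT library. The means were 17.6 ± 2.51 RPKM in amiRNACWIN24 and 9.54 ± 1.87 RPKM in WT (SD, n = 4 each), which gave log2 0.86 (SE 0.137; limma adjusted p = 7e-04). JAZ6 (AT1G72450, TIFY11B; chromosome 1, 27273968 to 27276562) held 66.6, 76.1, 65.4 and 70.1 RPKM in amiRNACWIN24 and 41.4, 46.4, 46.1 and 42.1 RPKM in WT. Its groups were well apart, with a spread of a few RPKM in each. The means were 69.5 ± 4.81 RPKM in amiRNACWIN24 and 44.0 ± 2.63 RPKM in WT, a log2 fold change of 0.65 (SE 0.0780; limma adjusted p = 0.00019). With the exon length trend removed the fold changes were 0.68 for JAZ5 and 0.50 for JAZ6, and both passed (limma adjusted p = 0.0092 and 0.0014).

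JAZ10 (AT5G13220; chromosome 5, 4218786 to 4221077) is a strongly jasmonate-induced member. It is known for splice forms that lack part of the Jas region and resist degradation, and the gene-level values here do not separate them. JAZ10 held 22.4, 25.0, 26.2 and 19.5 RPKM in amiRNACWIN24 and 12.03, 14.0, 15.6 and 9.79 RPKM in WT. Each amiRNACWIN24 library lay above every WT library, and replicate 4 was the lowest of both genotypes. The means were 23.3 ± 2.99 RPKM in amiRNACWIN24 and 12.8 ± 2.49 RPKM in WT, a log2 fold change of 0.85 (SE 0.141; limma adjusted p = 0.00087), and 0.67 (limma adjusted p = 0.01) with the exon length trend removed. JAZ10 shares 71 bases with AT5G02045 on the other strand and is uncertain to that extent, since the strand setting of the counting is not given in the sources used here; the other members overlap no annotated gene.

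JAZ1 and JAZ2 form another paralog pair. JAZ1, a typical member that is induced early by the hormone, was the most variable of the well-expressed members. JAZ1 (AT1G19180, TIFY10A; chromosome 1, 6621777 to 6623668) held 35.7, 49.9, 43.1 and 29.1 RPKM in amiRNACWIN24 and 25.9, 40.04, 20.8 and 15.2 RPKM in WT. The groups overlapped, since WT replicate 2 was above amiRNACWIN24 replicates 1 and 4. The means were 39.4 ± 9.04 RPKM in amiRNACWIN24 and 25.5 ± 10.6 RPKM in WT, a log2 fold change of 0.68 (SE 0.259; limma adjusted p = 0.049). This call sat at the threshold: it ended with the exon length trend removed (log2 0.64, limma adjusted p = 0.11) and without any of 6 libraries in turn (amiRNACWIN24 replicate 1, 2 or 3, or WT replicate 1, 3 or 4; log2 0.47 to 0.72, limma adjusted p = 0.06 to 0.13), while it passed without WT replicate 2 (log2 0.92, limma adjusted p = 0.0064) or amiRNACWIN24 replicate 4 (log2 0.81, limma adjusted p = 0.033). The authors' deposited table gives 0.54 with an FDR of 0.046 for JAZ1. JAZ2 (AT1G74950, TIFY10B; chromosome 1, 28148574 to 28150446) was steadier, at 42.4, 40.7, 46.0 and 44.3 RPKM in amiRNACWIN24 and 33.5, 42.5, 39.4 and 38.9 RPKM in WT. WT replicate 2 lay among the amiRNACWIN24 libraries. JAZ2 did not pass (log2 0.17, SE 0.0857; limma adjusted p = 0.12), though it did with the exon length trend removed (log2 0.34, limma adjusted p = 0.0082).

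JAZ3, JAZ4 and JAZ9 belong to a further branch of the family. JAZ9 (AT1G70700; chromosome 1, 26654529 to 26657350), whose protein also binds the DELLA repressor RGA of gibberellin signalling, held 184, 167, 170 and 185 RPKM in amiRNACWIN24 and 156, 145, 150 and 161 RPKM in WT. The groups did not overlap but lay close, with 167 RPKM as the lowest amiRNACWIN24 value and 161 RPKM as the highest WT value. The means were 176 ± 9.52 RPKM in amiRNACWIN24 and 153 ± 7.05 RPKM in WT, a log2 fold change of 0.20 (SE 0.0759; limma adjusted p = 0.046). The call of JAZ9 ended with the exon length trend removed (log2 0.15, limma adjusted p = 0.16), with median-of-ratios scaling (log2 0.14, limma adjusted p = 0.098) and without any of 6 libraries in turn (amiRNACWIN24 replicate 1, 3 or 4, or WT replicate 2, 3 or 4; log2 0.18 to 0.23, limma adjusted p = 0.054 to 0.12). Quantile normalization moved it to 0.45 (limma adjusted p = 0.0016). The authors' deposited table gives 0.11 with an FDR of 0.64 for JAZ9.

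JAZ3 (AT3G17860, TIFY6B; chromosome 3, 6119707 to 6123044), the gene of the jasmonate-insensitive mutant jai3, held 7.45, 8.53, 9.32 and 8.80 RPKM in amiRNACWIN24 and 8.43, 8.99, 8.34 and 8.46 RPKM in WT. All WT values fell inside the amiRNACWIN24 range, and the fitted difference was log2 -0.0086 (SE 0.0863; limma adjusted p = 0.94). With the exon length trend removed JAZ3 fell, by 0.32 on the log2 scale (limma adjusted p = 0.025).

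JAZ4 (AT1G48500, TIFY6A; chromosome 1, 17931390 to 17934662) was the scarcest member. It held 0.257, 0.145, 0.180 and 0.0601 RPKM in amiRNACWIN24, from 13, 7, 9 and 3 reads, and 0.564, 0.461, 0.319 and 0.548 RPKM in WT, from 31, 24, 16 and 29 reads. Every amiRNACWIN24 library was below every WT library. The means were 0.161 ± 0.0817 RPKM in amiRNACWIN24 and 0.473 ± 0.112 RPKM in WT (SD, n = 4 each), a ratio of 0.34, and the smallest count, 3 reads, is no more than a count of 0 allows. When the filter on low values was dropped, JAZ4 stood at log2 -0.56 (limma adjusted p = 0.0054); the untested difference with a pseudocount of 0.1 was -1.17. The authors' deposited table gives -1.55 with an FDR of 0.017 for JAZ4.

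JAZ7 and JAZ8 are short members, with exon lengths of 823 and 806 nt, that lack the canonical degron and bind TOPLESS directly through an EAR motif. JAZ7 (AT2G34600, TIFY 5B; chromosome 2, 14573030 to 14573952) held 2.95, 2.90, 2.16 and 2.53 RPKM in amiRNACWIN24 and 2.84, 3.26, 1.97 and 2.12 RPKM in WT. The 2 groups covered much the same range, and 43 to 74 reads stood behind each value. JAZ7 did not pass (log2 0.055, SE 0.161; limma adjusted p = 0.80). JAZ8 (AT1G30135, TIFY5A; chromosome 1, 10596352 to 10597341) held 2.55, 3.11, 3.80 and 2.63 RPKM in amiRNACWIN24 and 3.20, 5.76, 3.41 and 3.59 RPKM in WT. WT replicate 2 stood above all other libraries and the rest overlapped. JAZ8 did not pass either (log2 -0.33, SE 0.180; limma adjusted p = 0.15). Genes of like exon length had a median of -0.45 in both cases. With the trend removed JAZ7 rose (log2 0.55, limma adjusted p = 0.018) and JAZ8 turned to 0.18 (limma adjusted p = 0.45).

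**Figure D3:**
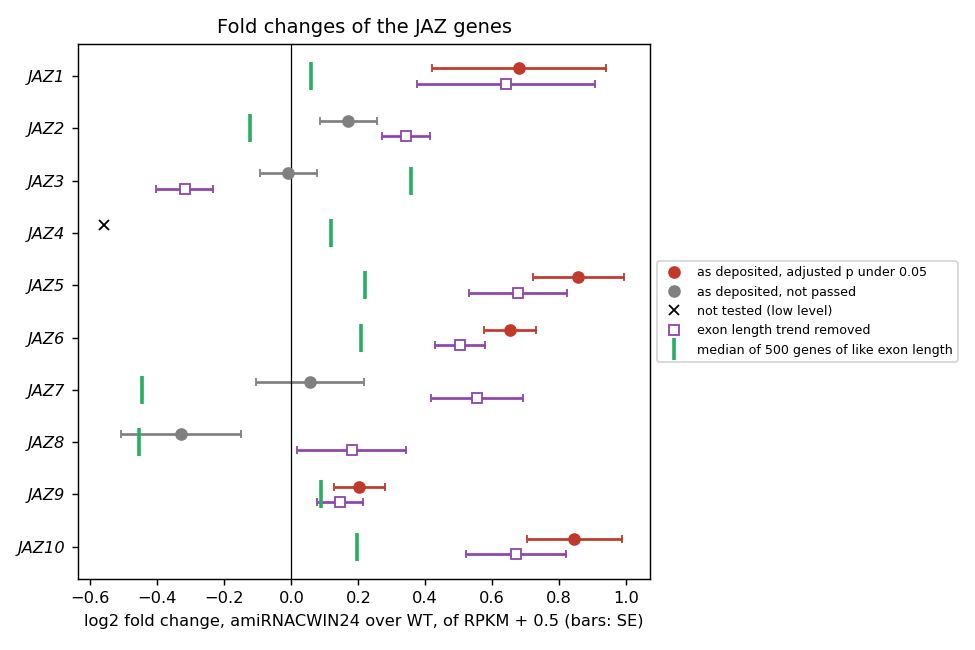
log2 fold change of each JAZ gene, amiRNACWIN24 over WT, from the values as deposited (circles, red where the adjusted p was under 0.05) and with the exon length trend removed (open squares), with bars of 1 SE; green ticks mark the median of the 500 tested genes nearest in exon length, and the cross is JAZ4, not tested. JAZ5, JAZ6 and JAZ10 stay between 0.50 and 0.86 in both, while JAZ3 moves down and JAZ7 and JAZ8 move up once the trend is removed.

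Beyond the difference between genotypes, some members shared their highest or lowest libraries. WT replicate 2 held the highest WT value of 7 members, JAZ1, JAZ2, JAZ3, JAZ5, JAZ6, JAZ7 and JAZ8, and the lowest of JAZ9. The RPKM of all genes also summed highest there, at 651104 RPKM, against 565773, 636944 and 612409 RPKM in WT replicates 1, 3 and 4. How many of all genes were highest in WT replicate 2 was not counted, so the 7 members need not be particular to this family. The deviation of WT replicate 2 from the WT mean was 0.73 for JAZ1, 0.51 for JAZ8, 0.35 for JAZ5 and 0.33 for JAZ7 on the log2 scale, against -0.078 for JAZ9. In amiRNACWIN24, replicate 2 was the highest in JAZ1, JAZ5 and JAZ6 and replicate 3 in JAZ2, JAZ3, JAZ8 and JAZ10. Replicate 4 was the lowest of its genotype for JAZ1, JAZ5 and JAZ10 in both amiRNACWIN24 and WT, where its number carries no stated link between the genotypes. The coefficient of variation was widest in JAZ1 among members above 5 RPKM (22.9% in amiRNACWIN24, 41.8% in WT) and was 5.40% in amiRNACWIN24 and 4.61% in WT for JAZ9.

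**Figure D4:**
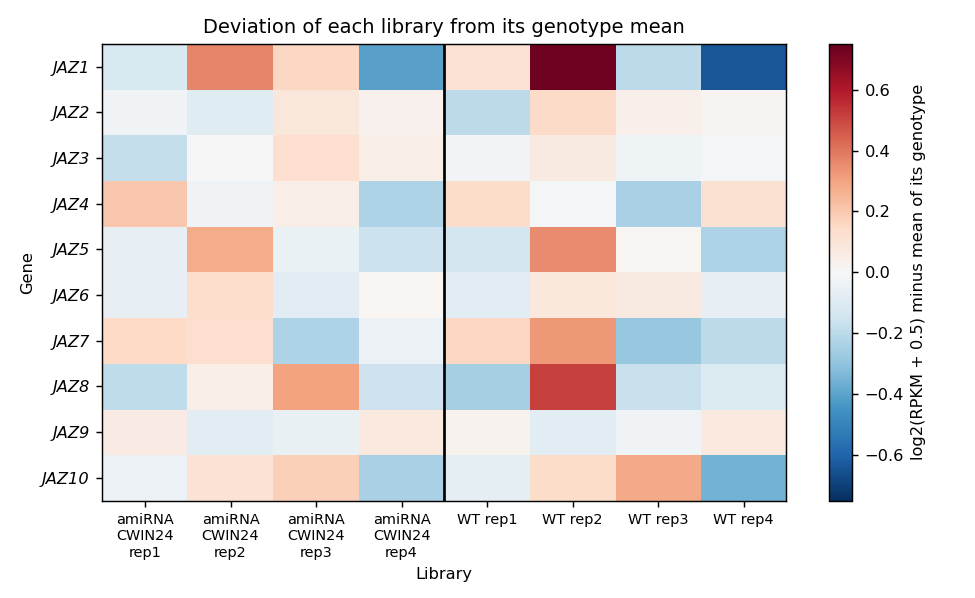
Deviation of each library from the mean of its genotype, on the log2(RPKM + 0.5) scale, for the 10 JAZ genes (rows) in the amiRNACWIN24 libraries (left of the line) and the WT libraries (right). WT replicate 2 is above its genotype mean in 8 of the 10 members and JAZ1 spans the widest range.

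Averaged over the 9 tested members, the deviations from the genotype means gave a profile led by WT replicate 2. Members differed in how well they followed each other. Pearson correlations with the mean of the other tested members were 0.863 for JAZ5, 0.806 for JAZ8 and 0.781 for JAZ1. Those of JAZ6, JAZ10, JAZ2, JAZ3 and JAZ7 ran from 0.474 down to 0.272, and that of JAZ9 was -0.887. The profile thus describes JAZ5, JAZ8 and JAZ1 best, and JAZ9 ran against it. The 5 other tested genes closest to this profile over the 8 libraries were GL22 (AT1G02335), a germin-like protein gene, GRXC13 (AT2G47880), a glutaredoxin gene, ZIP6, a metal transporter gene, AT3G54680 and AT5G38610, with Pearson correlations of 0.979, 0.968, 0.968, 0.965 and 0.962 in that order; GRXC13, ZIP6 and AT5G38610 overlap other annotated genes. They are the top of 19082 genes over 8 points and share their libraries, so the values describe likeness and no more. GL22 held 13.0, 15.6, 14.5 and 13.7 RPKM in amiRNACWIN24 and 10.1, 14.0, 11.7 and 10.0 RPKM in WT, with the same high replicate 2 in each genotype as JAZ1.

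Genes expressed in other cells of the bud differed between the same libraries. The 6 late pollen markers, VGD1, VGDH1, AGP6, AGP11, BCP1 and STP9, summed to 22.1 to 39.0 RPKM in amiRNACWIN24 and 158 to 395 RPKM in WT, 4 of the 6 fell (3 with the exon length trend removed), and 0 of the 6 were listed at 0 in any library. The 6 tapetum markers summed to 295 to 779 RPKM in amiRNACWIN24 and 134 to 504 RPKM in WT, 3 of the 6 rose (1, ACOS5, with the exon length trend removed), and 0 were listed at 0. The 5 ovule and carpel markers, STK among them, summed to 29.9 to 37.6 RPKM in amiRNACWIN24 and 40.5 to 47.0 RPKM in WT, with 1 up, 3 down and 0 listed at 0. Without STK, whose promoter drives the transgene, the other 4 summed to 29.3 to 36.9 RPKM in amiRNACWIN24 and 32.1 to 36.1 RPKM in WT, so the groups overlapped. With the exon length trend removed 0 of the 5 rose and 1, STK, fell. The part of these cell types in the JAZ levels was not tested. In a fit without WT replicates 1 and 2, JAZ1, JAZ5, JAZ6 and JAZ10 were called up, at log2 1.10, 0.97, 0.65 and 0.88 (limma adjusted p from 0.00046 to 0.0029), and JAZ9 was not (log2 0.18, limma adjusted p = 0.14). The 2 WT libraries kept in that fit had pollen sums of 158 and 221 RPKM, also above every amiRNACWIN24 library. That fit is therefore no test of the part of pollen in the JAZ levels.

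The other TIFY family genes did not pass the test in limma: of 9 tested, 0 rose and 0 fell, and 0 had an unadjusted p under 0.05 (the smallest was 0.12). With the exon length trend removed 2 rose, JAZ12 (log2 0.25, limma adjusted p = 0.017) and AT3G22275, a short TIFY-related gene also called JAZ13 (log2 0.86, limma adjusted p = 0.011). AT3G22275 lay close to the filter, at 1.58 ± 0.204 RPKM in amiRNACWIN24 and 1.17 ± 0.512 RPKM in WT, and overlaps a gene on the other strand. JAZ12, a JAZ repressor outside the first 10, was the second most abundant transcript among JAZ1 to JAZ12, at 108 ± 4.72 RPKM in amiRNACWIN24 and 116 ± 8.42 RPKM in WT (log2 -0.097, limma adjusted p = 0.32), and it overlaps genes on the other strand. JAZ11 held 12.5 ± 1.14 RPKM in amiRNACWIN24 and 13.7 ± 1.26 RPKM in WT (log2 -0.12, limma adjusted p = 0.29). The founding gene of the family, ZIM, held 22.1 ± 0.839 RPKM in amiRNACWIN24 and 23.6 ± 1.503 RPKM in WT (log2 -0.088, limma adjusted p = 0.34).

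The genes through which JAZ proteins act were mostly higher in amiRNACWIN24 as deposited. Of 9 genes of the receptor complex and corepressors, 8 rose and 1, the SCF subunit ASK1, fell, against 29.4% up and 21% down over all genes tested. COI1, the receptor, held 15.8 ± 0.884 RPKM in amiRNACWIN24 and 12.7 ± 0.762 RPKM in WT (log2 0.30, limma adjusted p = 0.0087), and it overlaps a gene on the other strand, as do TPL and TPR4. NINJA, the adaptor, held 46.5 ± 3.35 RPKM in amiRNACWIN24 and 35.7 ± 3.82 RPKM in WT (log2 0.38, limma adjusted p = 0.0066). The authors' deposited table gives 0.22 with an FDR of 0.068 for COI1 and 0.29 with an FDR of 0.033 for NINJA. The corepressor genes TPL, TPR1, TPR2 and TPR4 had log2 fold changes of 0.64, 0.56, 0.69 and 0.62 (limma adjusted p from 0.00049 to 0.001). These are long transcripts, and the genes nearest in exon length to these 4 had medians of 0.66, 0.62, 0.61 and 0.67. With the length trend removed 1 of the 9, NINJA, rose (log2 0.27, limma adjusted p = 0.044) and COI1 stood at 0.047 and TPL at 0.040.

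The tested transcription factor genes whose products JAZ proteins bind were also higher in amiRNACWIN24. Of 12 listed factors 7 were tested and 7 rose, against 29.4% of all genes tested. Their median log2 fold change was 0.58, and the median of the medians for genes nearest in exon length was 0.31. With the length trend removed the median was 0.27 and 4 were called up, MYC2, MYC3, JAM1 and JAM2. NIG1 (AT5G46830), TT8, GL3, MYB21 and MYB24 were too low to be tested. Every amiRNACWIN24 library lay below every WT library for MYB21 and TT8 and above for GL3, while NIG1 and MYB24 overlapped. Of all genes tested, 18.4% lay below and 27.4% above in this way. TT8 held 0.0189 to 0.0942 RPKM in amiRNACWIN24 and 0.103 to 0.178 RPKM in WT. GL3 held 0.101 to 0.196 RPKM in amiRNACWIN24 and 0.0418 to 0.0806 RPKM in WT. Values this low rest on few reads. MYB21, MYB24 and GL3 also overlap genes on the other strand. MYC2, the central activator of the response, held 23.6, 25.2, 17.9 and 17.0 RPKM in amiRNACWIN24 and 9.50, 6.99, 6.19 and 6.89 RPKM in WT. The groups were far apart, with a log2 fold change of 1.44 (SE 0.155; limma adjusted p = 0.00011), and 1.02 with the length trend removed (limma adjusted p = 0.0016). Part of MYC2 is shared with a gene of the opposite strand, and the authors' deposited table gives it a log2 fold change of 0.95 and a larger group mean of 31.4 RPKM, above the 20.9 RPKM of the per-library values. MYC3 and JAM1, a bHLH repressor that competes with MYC2, rose by 0.62 and 0.82, and JAM2, of the same repressor group, by 0.58 (limma adjusted p from 0.00018 to 0.0011). The stamen regulator MYB21, which JAZ proteins also bind, held 0.157, 0.152, 0.232 and 0 RPKM in amiRNACWIN24 and 2.65, 0.668, 0.304 and 0.265 RPKM in WT, with WT replicate 1 far above the rest.

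Most tested genes of jasmonate synthesis and most tested genes that jasmonate induces were higher in amiRNACWIN24. Over all genes tested 29.4% rose, and 14% did with the length trend removed. The synthesis list had 8 genes up among its 11 tested, 0 down and 3 that missed the threshold, with a median log2 fold change of 0.76. With the length trend removed 8 rose and 1, JAR1, fell, but not the same 8: LOX3 and LOX4 no longer passed, and the cyclase genes AOC1 and AOC4 did. LOX2, a plastid lipoxygenase, rose by 1.11, OPCL1, which activates precursors for beta-oxidation, by 1.19, the reductase OPR3 by 0.58 and LOX3 by 0.77 (limma adjusted p from 2.5e-05 to 0.00063); LOX3 stood at 0.39 with the trend removed (limma adjusted p = 0.065). Of the 10 induced outputs 7 were tested, with 5 up, 0 down and 2 that missed the threshold (median 0.67), and 4 were up with the length trend removed. The 2 that missed it were ANAC019 (log2 0.044) and ANAC055 (log2 -0.56). PDF1.2, ORA59 and ERF1 were too low to be tested. The vegetative storage protein gene VSP1 held 3004 to 3160 RPKM in amiRNACWIN24 and 1203 to 2030 RPKM in WT (log2 0.88, limma adjusted p = 0.0014), the jacalin-type lectin gene JR1 222 ± 10.7 RPKM in amiRNACWIN24 and 92.7 ± 7.69 RPKM in WT (log2 1.26, limma adjusted p = 9.5e-06; JR1 also shares bases with an opposite-strand gene), and TAT3, an aminotransferase gene, 4.85 ± 3.06 RPKM in amiRNACWIN24 and 1.27 ± 0.461 RPKM in WT (log2 1.48, limma adjusted p = 0.0053). CORI3, induced by coronatine, rose by 0.67 (limma adjusted p = 0.019), though its groups overlapped and its call ended with the length trend removed (log2 0.47, limma adjusted p = 0.14).

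Among genes that inactivate the hormone none tested rose. The list of 10 had 5 tested, with 0 up, 2 down and 3 that missed the threshold, and a median log2 fold change of 0.035. Over all genes tested 29.4% rose and 21% fell, so counts from 5 genes say little about the list. JRG21 (AT3G55970), which encodes an oxygenase that hydroxylates jasmonic acid, held 3.87, 3.10, 4.26 and 3.59 RPKM in amiRNACWIN24 and 13.0, 16.2, 6.95 and 4.47 RPKM in WT (log2 -1.19, SE 0.318; limma adjusted p = 0.01). The sulfotransferase gene ST2A held 3.89 ± 0.654 RPKM in amiRNACWIN24 and 6.99 ± 1.88 RPKM in WT (log2 -0.74, limma adjusted p = 0.01). Its groups overlapped, since WT replicate 1 (4.19 RPKM) lay below amiRNACWIN24 replicate 1 (4.69 RPKM). The amidohydrolase genes IAR3 and ILL6, which cleave jasmonoyl conjugates, stood at log2 0.035 and 0.10 and did not pass (limma adjusted p = 0.77 and 0.28). Within WT, JRG21 was highest in replicates 2 and 1, the libraries with the highest sums of late pollen markers. WT replicate 3 held more JRG21 than replicate 4 (6.95 against 4.47 RPKM) but had the lower pollen sum (158 against 221 RPKM). A link between JRG21 and pollen content was not tested.

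**Figure D5:**
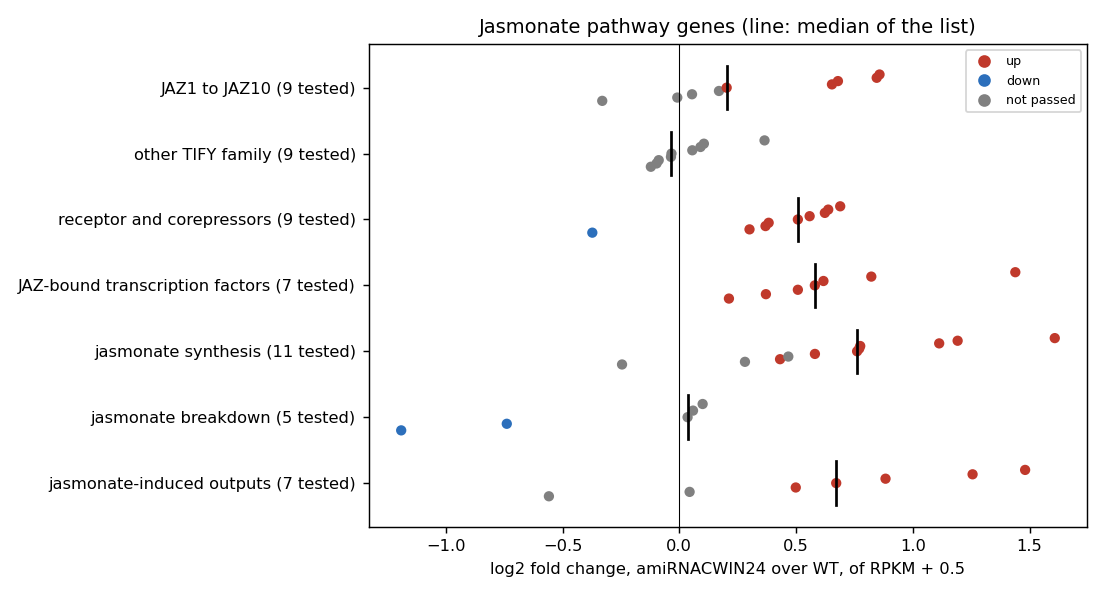
log2 fold change, amiRNACWIN24 over WT, of the tested genes of JAZ1 to JAZ10 and of 6 jasmonate lists, each point a gene (red up, blue down, grey not passed) and each black line the median of its list. The medians run from -0.033 in the other TIFY genes to 0.76 in jasmonate synthesis, with 0.20 in JAZ1 to JAZ10.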

How the data were processed

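Total RNA of pooled floral buds was DNase treated and sequenced as 125 bp paired ends on an Illumina HiSeq instrument, per the labels' protocols, and the submitters' processing notes name TAIR10. No source read for this work names the aligner, the counter, its strand setting or the annotation. The authors deposited RPKM values, 1 column per library, and a table of their own comparison, whose log2 fold changes and FDR values (handled as a score, since 8097 genes hold no value) are quoted as the authors' deposited table, per the file headers.

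Samples were grouped by title. RPKM values of low genes were whole multiples of 1 read within 0.05 reads for 99.6% to 99.7% of values per library, which gave the reads quoted; a floor of 3 reads covers counting error only. log2(RPKM + 0.5) was compared with limma 3.58.1 in R 4.3.3 (eBayes with a trend, two-sided, Benjamini-Hochberg over the 19082 genes averaging 1 RPKM or more, threshold 0.05), after a test on simulated data. There, 42 of 112 changes of log2 0.5 and 87 of 88 of log2 1 were recovered, with 14 false calls among 18994 genes. Small changes can thus be missed. The simulated data had no exon length trend and far fewer changed genes, so these shares need not hold here. The exon length trend was removed with a natural spline of 4 degrees of freedom per library. Of the genes, 32532 had the same coordinates in RefSeq TAIR10.1. Tables and plots were made with Python 3.11.15, pandas 2.3.3 and matplotlib 3.10.9.

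The members and lists were chosen with earlier results of these data known. Named were all 10 members, up to 4 genes with the smallest p per list, COI1, NINJA, TPL, MYC2, JAZ11, JAZ12 and AT3G22275, and the 5 genes of likest pattern. Outside that rule fall MYB21, ASK1, JAR1, LOX4, AOC1, AOC4, ANAC019, ANAC055, the other genes given as too low to be tested, and the label and marker genes. Of these, all but the label and marker genes were chosen after their values were seen. Replicates are biological per the labels, with no plants or collection times named. The p-values set the difference of the group means against the spread between these samples. With a single transgenic line they hold no variation between lines.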

Additional observations from a re-analysis of the deposited data

Results flagged for a closer look

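JAZ8 in WT replicate 2 stood apart from the other WT libraries, at 5.76 RPKM against 3.20, 3.41 and 3.59 RPKM in replicates 1, 3 and 4. The gap took up most of the range of the group, beyond Dixon's critical value for 4 samples. Of the 20 groups of 4 libraries checked (10 genes in 2 genotypes) this was the 1 so marked, and chance marks about 1 in 20. The value rests on 128 reads, against 75, 73 and 81, and the same library held the highest WT level of 6 other members. Without it the log2 fold change of JAZ8 was -0.16 (limma adjusted p = 0.39), against -0.33 with all libraries.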

How the results depend on the processing

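JAZ5, JAZ6 and JAZ10 passed limma's test in all 21 alternatives (log2 0.676 to 0.976, 0.504 to 0.741 and 0.671 to 0.941), and JAZ1 and JAZ9 in 8 of 21 each. JAZ1 did not pass with no filter (0.679), eBayes without trend (0.679), quantile normalization (0.675), median-of-ratios scaling (0.62), the exon length trend removed (0.641), length and GC trends removed (0.677) or voom on recovered reads (0.671). JAZ9 did not pass with median-of-ratios scaling (0.143), eBayes without trend (0.203), without both WT replicates 1 and 2 (0.178), length removed (0.145), length and GC removed (0.191) or voom (0.184). JAZ2 passed under quantile normalization (0.21), length removed (0.342) and length and GC removed (0.331), and JAZ7 under length (0.555) and length and GC removed (0.57). JAZ3 was -0.319 and passed with length removed, and turned to 0.0157 without both WT replicates. JAZ8 turned to 0.18 with length and 0.486 with length and GC removed. JAZ4 was -1.17 with a pseudocount of 0.1 and -0.343 with 1, by construction of the scale. The cause of the other changes was not tested.

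Members called up numbered 3 under median-of-ratios scaling, eBayes without trend and voom, and members down 1 with no filter and with length removed. Other TIFY genes up numbered 1 with array weights and without both WT replicates, and 2 with length and with length and GC removed; 1 was down under median-of-ratios and quantile scaling. Receptor and corepressor genes up numbered 1 with either trend removal, and 0 were down there and under quantile normalization. Bound factors up numbered 4 with either removal. Synthesis genes down numbered 1 under median-of-ratios, array weights, without both WT replicates, either removal and voom. Over all genes, 2652 rose and 1947 fell with length removed, and 2656 and 1983 with length and GC removed.

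Leaving out 1 library at a time gave 0.466 to 0.923 for JAZ1, 0.105 to 0.217 for JAZ2, -0.0506 to 0.0508 for JAZ3, -0.64 to -0.483 for JAZ4, 0.766 to 0.976 for JAZ5, 0.61 to 0.682 for JAZ6, -0.04 to 0.163 for JAZ7, -0.43 to -0.159 for JAZ8, 0.177 to 0.229 for JAZ9 and 0.728 to 0.941 for JAZ10. JAZ3 changed sign without amiRNACWIN24 replicate 1 (0.0508) or WT replicate 2 (0.014), and JAZ7 without WT replicate 3 (-0.04) or 4 (-0.0103). The counts ran from 3 to 4 for members up, 0 to 1 for other TIFY up, 0 to 1 for receptor and corepressor genes down, 6 to 7 for factors up, 7 to 9 up and 0 to 1 down for synthesis, 3 to 5 up and 0 to 1 down for outputs, and 4648 to 5654 up and 3243 to 4459 down over all genes.

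Same-numbered libraries deviated together with correlations of -0.2725, 0.1421, -0.3241 and 0.5271 for numbers 1 to 4, and only number 4 matched its own number best in both genotypes, so the numbers were not taken as pairs. With the replicate block 5581 genes rose and 3590 fell, 4 members rose, JAZ9 did not pass (0.203, limma adjusted p = 0.098), JAZ1 passed at 0.679 (limma adjusted p = 0.006), and 0 receptor and corepressor genes were down.

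JAZ4 rests on 32 reads in amiRNACWIN24 and 100 in WT, and JAZ7 and JAZ8 on 43 to 128 reads per library, which limits their precision.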
